A study of Mus musculus with 96 samples.

Results

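Of the 42403 GATA6 binding regions in the deposited table, 4318 (10.2%) carried the authors' class for constitutive heterochromatin, and all 4318 are described here. The class came from the authors' clustering of histone mark signal of undifferentiated ES cells, taken from ENCODE, so it gives the chromatin of a region before GATA6 was present and uses no transcription factor signal of this study. The marks themselves were not used here, and the class could therefore not be checked against them. Facultative heterochromatin, the class nearest to it in kind, held 9475 regions (22.3%), and the class the authors call naive held 7631 (18%).

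Constitutive heterochromatin is the compacted part of the genome that is marked by trimethylation of lysine 9 on histone H3 and bound by HP1 proteins. It covers satellite repeats, transposable elements and some gene families, and stays silent in most cell types. Most transcription factors are kept from their motifs there. A pioneer factor is a protein that can bind its motif in closed, nucleosomal DNA, and GATA factors are among the best known examples. GATA6 directs cells of the early embryo to the primitive endoderm (PrE), the precursor of the yolk sac, whereas OCT4, SOX2 and ESRRB are pluripotency transcription factors (PTFs) that keep ES cells undifferentiated. SOX17 is an HMG-box factor that GATA6 activates on the way to PrE.

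The cells were KH2 mouse ES cells (C57BL/6 x 129/Sv) that carried a doxycycline (Dox) inducible GATA6 transgene, tagged with HA, and were grown with 1 µg/mL Dox to start differentiation. Chromatin was fixed with DSG and then PFA, and immunoprecipitated (ChIP-seq) for GATA6, SOX17, OCT4 and SOX2 before Dox, at 8 h and 16 h, and on days 1, 2 and 4, as well as in XEN cells of the X10 line, an embryo-derived model of PrE. ESRRB was followed over the same times but not in XEN cells, and input chromatin gave the background. In a second experiment GATA6 and SOX17 were measured on day 2 of Dox after nucleofection of an siRNA against Oct4 (siOCT4) or a control siRNA (siCTL). Clones G6.1 and G6.3 carried the transgene, the siRNA experiment used G6.3 alone, and feeder fibroblasts were removed by adsorption before harvest. OCT4 protein in the siOCT4 cells was not part of the region table.

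Each value is the number of reads of a region scaled to the size of its library (RPM, reads per M library reads, where M is short for mega), and the table held 1 pooled value per condition although the labels list 2 libraries for most conditions and a repeat of one of them for 4. Which of them entered the columns with a repeat is not known, and GATA6 and SOX2 on day 4 and input of XEN cells showed the steps of 2. GATA6 before Dox and OCT4 in XEN cells had 1 library each. With no spread between replicates no comparison below could be tested, and each is given as a description, with the same quantity over all 42403 regions beside it. Regions share their libraries and are not replicates of a condition. The steps of the values put the depth at 5.42 to 69.4 M reads per library, with a median of 15.3 M. At the GATA6 depth before Dox, 6.12 M reads, the median constitutive heterochromatin region had 2 reads, 2578 of them (59.7%) had 1 or 2, and the highest had 21. Single regions near the background are thus known only to within a few reads, and no region was at 0 in any condition.

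The sequences around the best GATA6 motif are shown first for the regions on which the account turns. The motif found by the authors' search is in capitals with 30 bases on either side, on the strand of the motif, and the bases were read from the RefSeq GRCm38 (mm10) assembly. The first 4 are the closed regions with the most GATA6 over input at 8 h, and the next 3 those with the most on day 4 (the region upstream of Thumpd3 belonged to both sets).
Ttc39b intron, chr4:83294232-83295687, motif on the + strand: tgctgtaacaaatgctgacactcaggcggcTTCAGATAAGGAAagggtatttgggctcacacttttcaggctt
Near Thumpd3, chr6:113006245-113008095, − strand: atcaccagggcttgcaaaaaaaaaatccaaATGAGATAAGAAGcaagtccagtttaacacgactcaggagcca
Zfp874a intron, chr13:67433052-67435425, − strand: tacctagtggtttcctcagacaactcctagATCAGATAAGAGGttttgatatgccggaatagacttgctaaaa
Near Nlrp4a, chr7:26476293-26478018, − strand: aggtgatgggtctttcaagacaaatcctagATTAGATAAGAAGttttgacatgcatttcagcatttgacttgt
Zfhx3 intron, chr8:108753959-108755536, − strand: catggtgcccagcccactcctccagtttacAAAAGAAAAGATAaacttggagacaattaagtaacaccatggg
Near Hopx, chr5:77128860-77131101, − strand: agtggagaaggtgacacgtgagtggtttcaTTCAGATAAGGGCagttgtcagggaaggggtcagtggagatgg
Near Pisd, chr5:32706031-32707379, + strand: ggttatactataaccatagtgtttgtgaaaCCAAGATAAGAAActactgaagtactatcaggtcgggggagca

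The following 3 are the moderately accessible regions with the most GATA6 over input at 8 h.
Near Tpm3-rs7, chr14:114038352-114039931, + strand: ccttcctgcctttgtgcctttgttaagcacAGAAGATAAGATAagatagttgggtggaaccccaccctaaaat
Abca4 intron, chr3:122145084-122146260, − strand: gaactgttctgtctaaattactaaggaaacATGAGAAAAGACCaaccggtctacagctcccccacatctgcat
Near Wdr20rt, chr12:65592425-65595231, − strand: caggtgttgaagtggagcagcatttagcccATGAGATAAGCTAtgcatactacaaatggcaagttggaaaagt

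The last 2 are the closed regions with the highest GATA6 motif score, 15.2, and they hold the same 13 letters.
Orc5 intron, chr5:22544718-22546085, − strand: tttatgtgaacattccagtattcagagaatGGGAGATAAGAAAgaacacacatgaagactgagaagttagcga
Near Lmo4, chr3:144256212-144256486, − strand: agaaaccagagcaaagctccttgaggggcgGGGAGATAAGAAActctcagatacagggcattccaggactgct
Across the constitutive heterochromatin regions with a GATA6 motif, 60.5% of the best motifs held AGATAA and 83.4% held GATA, against 59.6% and 82.5% over all regions. The best motif lay a median of 45 bp from the summit (51 bp over all regions).

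The 4318 regions were shorter, farther from genes and richer in repeats than the table as a whole. Their median width was 383 bp (range 174 to 3981) against 524 bp, and 49.7% were intergenic and 3.45% at promoters against 38.5% and 8.28%. The median distance to the nearest start site was 45.7 kb against 31.1 kb. More than 50% of the bases were masked as repeats in 697 regions (16.1%), against 8.64% over all regions. Closed regions, those with little ATAC-seq signal in undifferentiated cells, numbered 3365 (77.9% against 61.3%), moderately accessible regions 926 (21.4% against 31.2%) and accessible regions 27 (0.625% against 7.43%). A high-score GATA6 motif was present in 1082 (25.1% against 26.8%) and none in 486 (11.3% against 10.3%). The regions lay on every autosome, where they were 8.76% to 14.1% of the binding regions, with chromosome 8 at the top (309 regions). The X chromosome held 17 of its 1238 regions (1.37%), and there 57.4% of regions had the naive class against 16.8% on the autosomes. Input before Dox was 0.530 RPM per kb on the X and 0.871 on the autosomes. Whether that bears on the class was not tested.

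GATA6 was already present in these regions at 8 h of Dox, at a lower level than in the table as a whole. The median was 0.327 RPM before Dox, 0.937 at 8 h, 0.926 at 16 h, 0.838 on day 1, 0.733 on day 2, 0.861 on day 4 and 0.868 in XEN cells. Over all regions the medians were 0.490, 1.49, 1.45, 1.29, 1.13, 1.29 and 1.34 RPM in the same order. The median course was thus nearly level from 8 h on, and below the table at every time. The regions were also narrower, and per kb of region the median at 8 h was 2.54 RPM against 3.27 and on day 4 it was 2.28 against 2.69. Input stayed between 0.264 and 0.368 RPM throughout.

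Past 2-fold on the scale of log2(RPM + pseudocount), GATA6 was higher at 8 h than before Dox in 2208 constitutive heterochromatin regions (51.1%), against 60.4% of all regions. The median log2 difference was 1.04 against 1.38. Regions entered the table through GATA6 peaks of the authors, so some GATA6 gain was built into the list. Taken relative to that median of all regions, 13.6% stood past 2-fold higher and 31.7% lower, against 22.4% and 24.3%. Between 8 h and day 4 the regions parted in nearly equal numbers. GATA6 was past 2-fold higher on day 4 in 1312 (30.4%, against 30.9% of all regions) and lower in 1360 (31.5%, against 34.8%). Between day 4 and XEN cells, which are another line and not a later time, 617 (14.3%) were higher and 606 (14.0%) lower, against 14.4% and 11.7%. The level median thus stood over individual courses that differed in direction.

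The authors' GATA6 groups, which k-means clustering drew from these same GATA6 values, describe that split. The Late group held 1782 regions (41.3%, against 33.6% of all regions), the Transient group 1629 (37.7%, against 38.4%) and the Early&Constant group 907 (21%, against 28.0%). Late regions had a GATA6 median of 0.318 RPM at 8 h, 1.07 on day 4 and 1.46 in XEN cells. In Transient regions it was 1.61 RPM at 8 h, 0.450 on day 4 and 0.302 in XEN cells. Early&Constant regions stayed between 1.76 and 2.15 RPM from 8 h to day 4. Since the groups were made from these courses, the values show the groups and are no separate result.

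Accessibility before Dox, measured by another assay, sorted the courses in opposite directions. In closed regions the GATA6 median was 0.327 RPM before Dox, 0.696 at 8 h, 0.809 at 16 h, 0.767 on day 1, 0.684 on day 2, 0.907 on day 4 and 1.01 in XEN cells, so that it was highest in XEN cells. In moderately accessible regions it was 0.490, 1.91, 1.38, 1.09, 0.964, 0.715 and 0.466 RPM, highest at 8 h and back at the level before Dox in XEN cells. The ratio of moderately accessible to closed regions was 2.74 at 8 h, 1.71 at 16 h, 1.43 on day 1, 1.41 on day 2, 0.788 on day 4 and 0.462 in XEN cells. The order of the 2 classes was therefore reversed between day 2 and day 4. All closed regions of the table had medians of 0.926 RPM at 8 h, 1.28 on day 4 and 1.5 in XEN cells, the same order at higher levels. They were also wider, with a median of 486 bp against 367 bp. Per kb the closed constitutive heterochromatin regions stood at 1.83 RPM against 1.90 at 8 h, nearly the same. On day 4 they stood at 2.58 against 2.91 and in XEN cells at 2.89 against 3.68 RPM per kb.

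**Figure D1:**
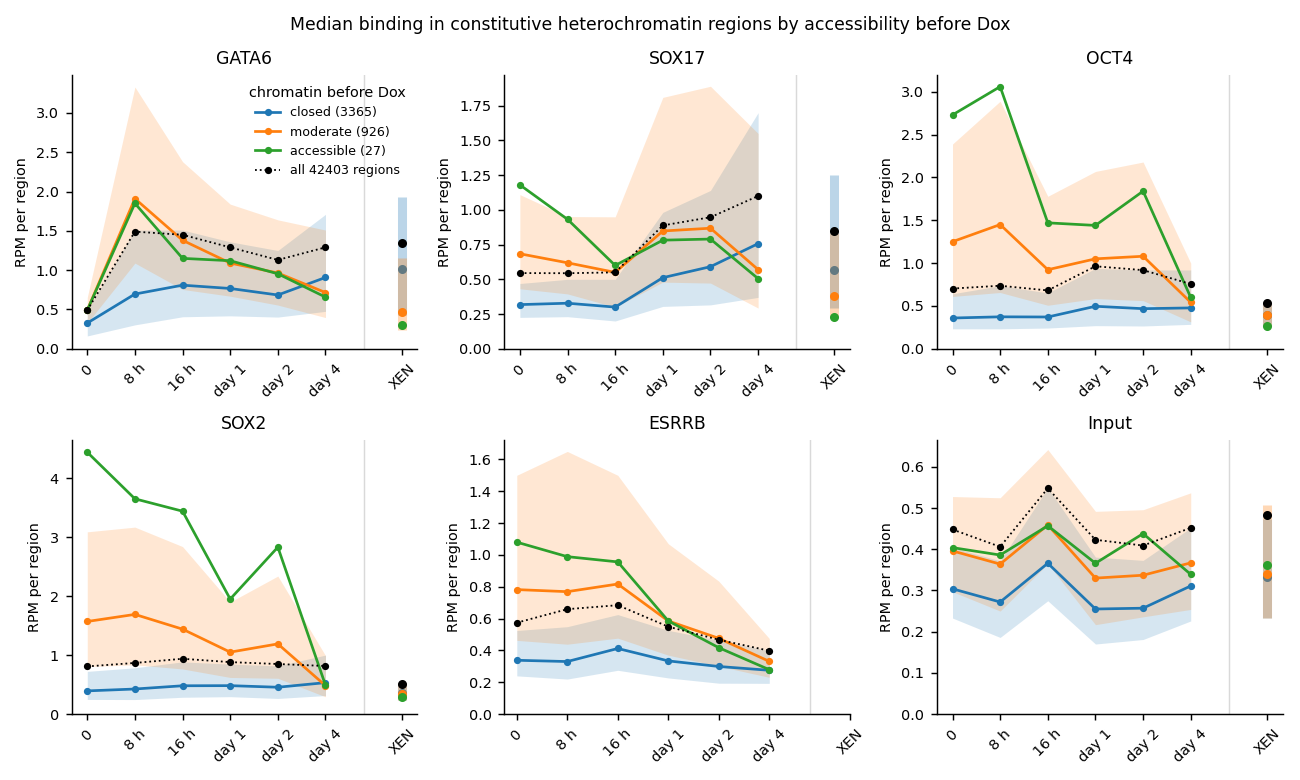
Median RPM per region of each factor and of input before Dox, at 8 h and 16 h, on days 1, 2 and 4 and in XEN cells, for constitutive heterochromatin regions by accessibility class (1 pooled value per condition; bands and bars span the quartiles over regions, for the 2 larger classes, and the dotted line is the median of all regions). GATA6 was highest at 8 h in moderately accessible regions (1.91 RPM) and highest in XEN cells in closed regions (1.01 RPM).

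Counted by region, GATA6 at 8 h was past 2-fold higher than before Dox in 42.9% of closed constitutive heterochromatin regions (48.6% of all closed regions) and in 80.0% of moderately accessible ones (79.8%). The 27 accessible regions had GATA6 medians of 0.490 RPM before Dox and 1.85 at 8 h, against 0.653 and 2.61 RPM over all accessible regions. From 8 h to day 4 it was past 2-fold higher in 36.3% and lower in 23.9% of closed regions, against 41.4% and 24.8% of all closed regions. In moderately accessible regions it was higher in 9.72% and lower in 58.0%, against 13.5% and 51.4%. Among the 27 accessible regions none was past 2-fold higher on day 4 and 18 were lower (17.8% and 47.9% of all accessible regions). Of the closed regions 48.9% were Late, against 44.6% of all closed regions. Of the moderately accessible regions 14.7% were Late and 63.6% Transient, against 15.9% and 57.0%, so that the split by accessibility was also that of the whole table.

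**Figure D2:**
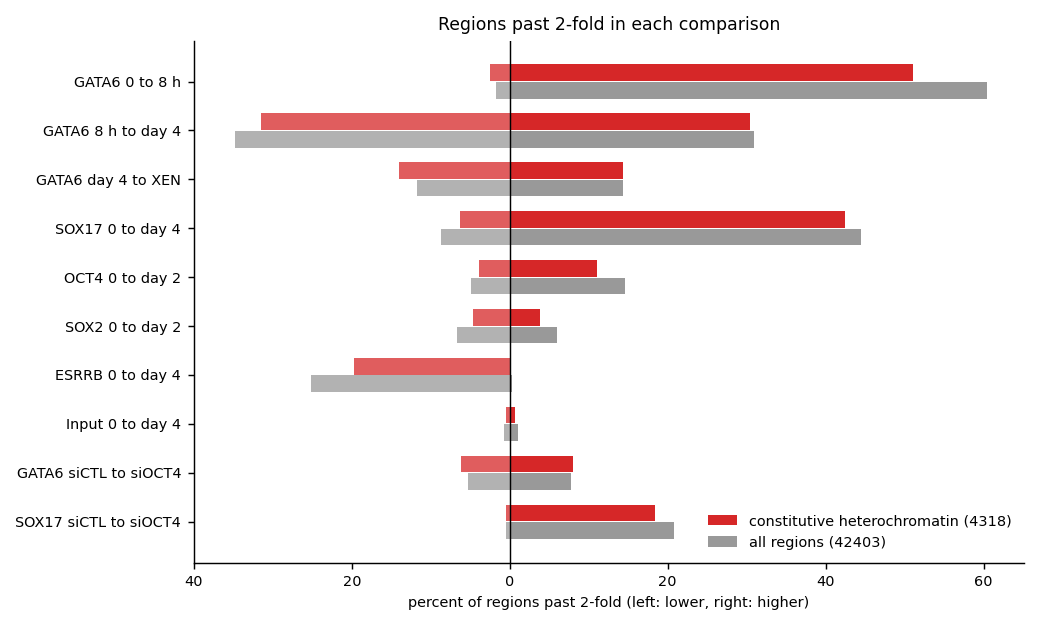
Percent of regions past 2-fold higher or lower on log2(RPM + pseudocount) in each comparison, for constitutive heterochromatin regions and for all regions of the table. For GATA6 from 8 h to day 4 the constitutive heterochromatin regions stood at 30.4% higher and 31.5% lower, against 30.9% and 34.8% of all regions.

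In closed constitutive heterochromatin the score of the best GATA6 motif ordered the GATA6 signal at 8 h and no longer on day 4. Closed regions with a high-score motif (928) had a median of 1.12 RPM at 8 h, those with a mid score (1090) 0.767, those with a low score (1026) 0.460 and those without a motif (321) 0.362. On day 4 the same groups stood at 0.896, 0.924, 0.939 and 0.757 RPM, and in XEN cells at 1.00, 1.00, 1.04 and 0.967. The ratio of high score to no motif went from 3.10 at 8 h through 2.56 at 16 h, 1.90 on day 1 and 1.41 on day 2 to 1.18 on day 4 and 1.03 in XEN cells. In all closed regions of the table it went from 4.54 at 8 h to 1.26 on day 4 and 1.13 in XEN cells. Regions with better motifs were also wider, with medians of 403, 374, 347 and 316 bp from high score to none, and per kb the ratio on day 4 was 0.876, below 1.

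**Figure D3:**
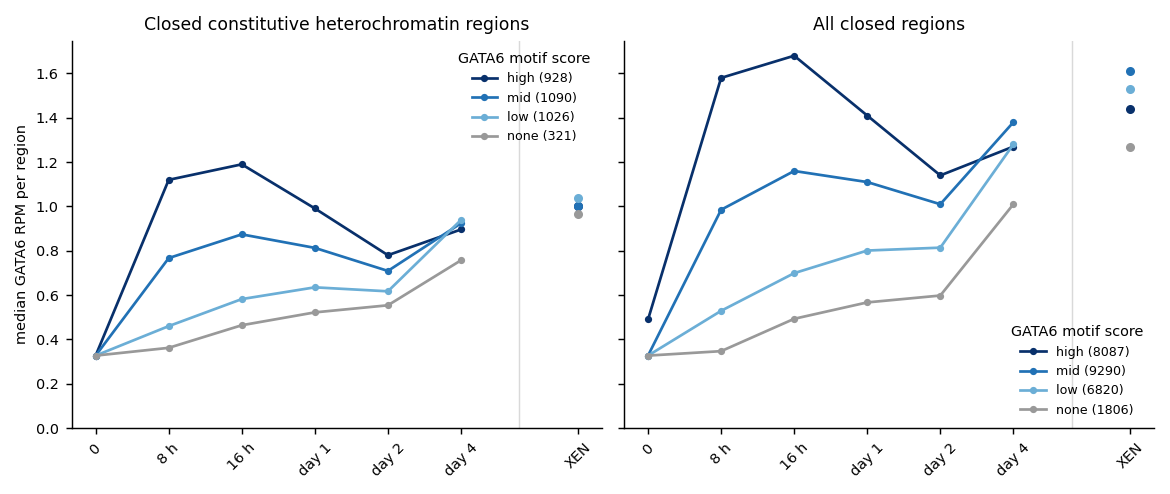
Median GATA6 RPM per region over time by GATA6 motif score, in closed constitutive heterochromatin regions (left) and in all closed regions (right), with the number of regions in brackets. In closed constitutive heterochromatin the groups ran from 0.362 to 1.12 RPM at 8 h and from 0.757 to 0.939 RPM on day 4.

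Over the 3044 closed regions with a motif, Spearman's rho between motif score and GATA6 was 0.289 at 8 h, 0.306 at 16 h, 0.217 on day 1, 0.129 on day 2, 0.00242 on day 4 and -0.00452 in XEN cells. These coefficients are across regions of the same libraries and are given as a description. The motif thus ordered only a small part of the spread at any time. Past 2-fold gains at 8 h were seen in 57.5% of closed regions with a high score, 46.6% with a mid score, 31.6% with a low score and 23.7% without a motif, against 66%, 50.4%, 32.6% and 22.3% of all closed regions. From 8 h to day 4 the order turned, with 24.0%, 36.3%, 45.6% and 42.1% past 2-fold higher, against 28.3%, 42.1%, 52.7% and 53.6%. The pair from Orc5 and Lmo4 has the same 13 letters but widths of 1367 and 274 bp. The Orc5 region was at 0.980 RPM before Dox, 6.85 at 8 h, 6.15 at 16 h, 5.03 on day 1, 4.90 on day 2, 5.23 on day 4 and 4.97 in XEN cells. The Lmo4 region was at 0.327, 0.478, 0.811, 0.755, 0.765, 0.896 and 1.20 RPM, below the Orc5 region in each condition. Per kb the order was the opposite before Dox (1.19 RPM in the Lmo4 region against 0.717) and in XEN cells (4.37 against 3.64), while at 8 h the Lmo4 region stood at 1.75 against 5.01.

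The closed regions with the most GATA6 at 8 h followed 2 kinds of course. The Ttc39b region held 1.31 RPM before Dox, 34.3 at 8 h, 14.1 at 16 h, 7.08 on day 1, 3.85 on day 2, 1.67 on day 4 and 1.33 in XEN cells. In the Zfp874a region, within a gene for a zinc finger protein, the values were 1.14, 24.6, 11, 4.65, 2.47, 1.90 and 1.20 RPM. Near Nlrp4a they were 1.14, 20.3, 10.8, 3.84, 3.12, 0.886 and 0.470 RPM. All 3 were highest at 8 h and near the value before Dox by day 4. They were chosen for GATA6 at 8 h, so its place above the later values is no result. All 3 carried OCT4 before Dox (6.64, 4.58 and 9 RPM), more at 8 h (12.7, 7.25 and 13.8) and little on day 4 (1.30, 1.03 and 0.527). The region near Thumpd3, 39.1 kb from its start, behaved otherwise, with GATA6 at 1.47 RPM before Dox, 32.6 at 8 h, 29.4 at 16 h, 22.9 on day 1, 27.3 on day 2, 29.9 on day 4 and 42.3 in XEN cells. There SOX17 was at 5.57 RPM before Dox (beside SOX2 at 13.1), 31.2 on day 1, 43.2 on day 4 and 46.1 in XEN cells, so that both PrE factors stayed.

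The other 3 closed regions with the most GATA6 on day 4, besides that near Thumpd3, had lower values at the earlier times. They were chosen for their value on day 4, so its place above the earlier ones is no result. In the Zfhx3 intron GATA6 was at 1.14 RPM before Dox, 3.77 at 8 h, 6.92 at 16 h, 11.6 on day 1, 14.6 on day 2, 30.3 on day 4 and 29.2 in XEN cells. That region had a low motif score, 8.31, and the highest SOX17 of all constitutive heterochromatin regions on day 4, 53.1 RPM. Near Hopx, a homeodomain gene, the GATA6 values were 1.47, 6.53, 12.8, 13.7, 20.8, 23.1 and 10.3 RPM. Near Pisd, 79.1 kb from the start, they were 0.327, 2, 2.38, 4.42, 7.67, 20.6 and 29.7 RPM. GATA6 in these 3 regions was higher at each time to day 4, and input was higher too in the Zfhx3 region (1.51 RPM before Dox, 3 on day 4 and 4.63 in XEN cells) and near Hopx (1.45 and 3.25 RPM before Dox and on day 4). The part of input in those courses was not tested.

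Among regions with a highest GATA6 value of at least 3.23 RPM (the 75th percentile of those values), the largest differences from 8 h to day 4 were picked in each direction. The direction of the courses below thus follows from the choice and is no result. GATA6 near Ctsh, the gene for cathepsin H, was at 0.817 RPM before Dox, 0.579 at 8 h, 1.34 at 16 h, 1.96 on day 1, 4.35 on day 2, 15.6 on day 4 and 12.5 in XEN cells. Near Otud4 it was 0.327, 0.718, 1.05, 1.31, 2.52, 17.3 and 19.1 RPM, with SOX17 at 2.09 RPM on day 2 and 27.1 on day 4. Both regions had at most 1.96 RPM up to day 1, when input was at 0.789 RPM near Ctsh and 1.28 near Otud4. In the Tmem117 intron GATA6 was at 0.653 RPM before Dox, 24.3 at 8 h, 10.9 at 16 h, 3.8 on day 1, 3.72 on day 2, 1.07 on day 4 and 0.633 in XEN cells, the opposite order.

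**Figure D4:**
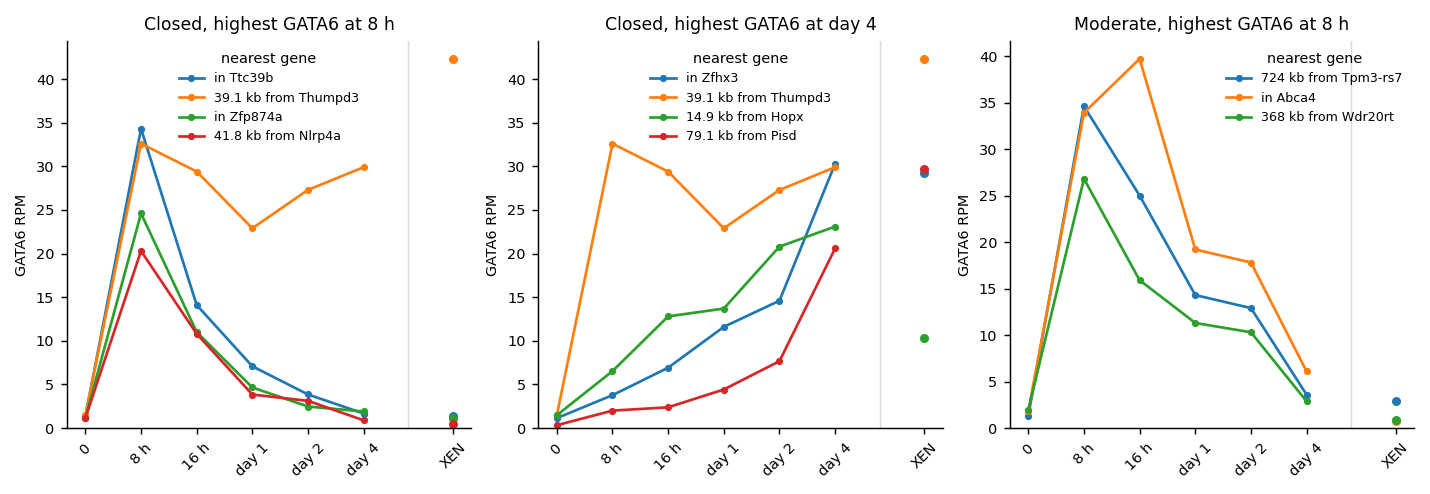
GATA6 RPM over time in single constitutive heterochromatin regions named in the text, each point being 1 pooled value. Panels show closed regions with the most GATA6 at 8 h (left) or on day 4 (middle), and moderately accessible ones at 8 h (right). GATA6 stood at 34.3 RPM at 8 h and 1.67 on day 4 in the Ttc39b intron, and at 3.77 and 30.3 RPM in the Zfhx3 intron.

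SOX17 followed GATA6 in time. Its median in these regions was 0.366 RPM before Dox, 0.372 at 8 h, 0.350 at 16 h, 0.578 on day 1, 0.631 on day 2, 0.710 on day 4 and 0.524 in XEN cells, so that it stayed level for 16 h, whereas GATA6 was already at its highest median at 8 h. SOX17 was past 2-fold higher on day 4 than before Dox in 1837 regions (42.5%, against 44.5% of all regions) and lower in 270 (6.25%, against 8.72%). Relative to the median of all regions, which was 0.79 higher on the log2 scale, 22.3% stood higher and 22.4% lower, against 25.6% and 24.5%. Among closed regions 47.9% were higher and 1.90% lower, against 53.7% and 2.07% of all closed regions, and among moderately accessible ones 24.0% were higher and 20.6% lower, against 29.9% and 16.7%. SOX17 medians before Dox were 0.318, 0.684 and 1.18 RPM in closed, moderately accessible and accessible regions. SOX2 medians in the same order were 0.393, 1.57 and 4.44 RPM. What the SOX17 signal before Dox stands for was not tested. Lower SOX17 on day 4 is therefore not read as a loss of SOX17 binding. By peak calls of the authors 1652 regions (38.3%) were SOX17-bound, against 44.5% of all regions. Across the 3365 closed regions rho between SOX17 and GATA6 of the same time was 0.630 at 8 h, 0.798 on day 1, 0.890 on day 4 and 0.883 in XEN cells, and region width, which both share, had a rho of 0.632 with GATA6 at 8 h and 0.521 on day 4.

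PTF medians before Dox were higher the more accessible the regions were. OCT4, which binds DNA together with SOX2, had a median of 1.25 RPM before Dox in moderately accessible regions, 1.45 at 8 h, 0.923 at 16 h, 1.05 on day 1, 1.08 on day 2, 0.542 on day 4 and 0.400 in XEN cells. In closed regions it was 0.359, 0.373, 0.371, 0.496, 0.468, 0.477 and 0.400 RPM, beside input medians of 0.304 RPM before Dox, 0.255 on day 1 and 0.257 on day 2. The 27 accessible regions had 2.73 RPM before Dox and 0.599 on day 4. SOX2 medians before Dox were 0.393 RPM in closed, 1.57 in moderately accessible and 4.44 in accessible regions, and on day 4 0.533, 0.482 and 0.490. The accessibility classes thus differed in OCT4 and SOX2 before Dox and had come close together by day 4.

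Counted by region, OCT4 was past 2-fold higher on day 2 than before Dox in 480 constitutive heterochromatin regions (11.1%, against 14.6% of all regions) and lower in 168 (3.89%, against 4.86%). The share with higher OCT4 was 27.4% with input subtracted and 1.6% with a pseudocount 10 times larger. Relative to the median of all regions, 0.23 on the log2 scale, the shares were 7.20% and 6.83%, against 9.58% and 8.29%. SOX2 was higher in 165 (3.82%, against 6.01%) and lower in 200 (4.63%, against 6.7%). With input subtracted the balance turned, to 14.2% higher and 8.29% lower, as it did with a pseudocount 10 times smaller (8.96% and 8.34%). ESRRB, a nuclear receptor, was past 2-fold higher on day 4 in 8 (0.185%, against 0.248%) and lower in 851 (19.7%, against 25.2%). Relative to the median of all regions, which was -0.40 on the log2 scale, ESRRB was higher in 2.66% and lower in 11.7%, against 2.92% and 16.0%. The share with lower ESRRB was 11.5% in closed and 47.8% in moderately accessible regions (10% and 46.1% of all regions of these classes), and 22 of the 27 accessible ones (62.6% of all accessible). Input on day 4 was past 2-fold higher than before Dox in 31 regions (0.718%, against 1.08%) and lower in 20 (0.463%, against 0.79%).

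Few of these regions bound OCT4, SOX2 or ESRRB at high level, but the table's highest value of each before Dox was among them. The moderately accessible region in the Abca4 intron, a gene for a lipid transporter, had OCT4 at 69.9 RPM before Dox, 75.9 at 8 h, 92.3 at 16 h, 66.7 on day 1, 50.7 on day 2, 9.14 on day 4 and 0.800 in XEN cells. Its SOX2 before Dox was 58.4 RPM, also the highest of the table, and its joint OCT:SOX motif scored 18.1 while its GATA6 motif scored 7.81, a low score. GATA6 there was at 1.80 RPM before Dox, 33.9 at 8 h, 39.7 at 16 h, 19.2 on day 1, 17.8 on day 2, 6.09 on day 4 and 0.773 in XEN cells. GATA6 at 8 h thus stood high on a region with a weak GATA6 motif and a strong OCT:SOX motif. Near Tpm3-rs7, 724 kb from the start, GATA6 was at 1.31, 34.6, 25, 14.3, 12.9, 3.59 and 2.93 RPM in the same order, and near Wdr20rt it was at 1.96, 26.8, 15.9, 11.3, 10.3, 2.87 and 0.868 RPM. OCT4 before Dox was at 15.2 and 17.5 RPM in that pair. All 3 regions held at most 6.09 RPM of GATA6 on day 4. They were chosen for GATA6 at 8 h, so the lower values on day 4 are no result.

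The authors' PTF classes, which rest on peak calls of these PTFs, put 703 regions (16.3%, against 20.8% of all regions) in the class bound by PTFs before Dox, 561 (13%, against 16.6%) in the class bound ectopically after Dox, and 3054 (70.7%, against 62.6%) in neither. Among closed regions 6.51% were bound before Dox, among moderately accessible ones 49.8%, and among accessible ones 23 of 27, against 7.20%, 38.5% and 59.2% of all regions of these classes. A high-score OCT:SOX motif was found in 6.88% of constitutive heterochromatin regions, against 6.68% of all regions. By accessibility it was found in 4.58% of closed, 14.7% of moderately accessible and 7 of the 27 accessible constitutive heterochromatin regions. Of the constitutive heterochromatin regions with such a motif 55.2% were bound by PTFs before Dox, against 63.8% of all regions with one, and without the motif the shares were 3.25% and 6.05%.

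GATA6, which did not enter the PTF classes, differed in course between them. Regions bound by PTFs before Dox had GATA6 medians of 0.490 RPM before Dox, 2.91 at 8 h, 1.97 at 16 h, 1.40 on day 1, 1.30 on day 2, 0.733 on day 4 and 0.398 in XEN cells. Regions with ectopic PTFs had 0.490, 1.39, 1.62, 1.77, 1.86, 1.89 and 0.936 RPM. The remaining regions had 0.327, 0.607, 0.697, 0.654, 0.580, 0.785 and 1.00 RPM. GATA6 was thus highest at 8 h with PTFs bound beforehand, on days 2 to 4 with ectopic PTFs and in XEN cells with neither. The same classes over all regions of the table ran alike. With PTFs bound before Dox their medians at 8 h, on day 4 and in XEN cells were 4.87, 1.30 and 0.802 RPM. They were 1.81, 3.42 and 2.56 RPM with ectopic PTFs, and 0.927, 1.06 and 1.36 RPM with neither. In closed regions OCT4 before Dox and GATA6 at 8 h had a rho of 0.839, which was 0.212 with GATA6 on day 4 and -0.111 with GATA6 in XEN cells. Over all closed regions of the table the values were 0.867, 0.308 and 0.0769. RPM counts the whole region, and region width had a rho of 0.632 with GATA6 at 8 h in closed constitutive heterochromatin.

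At ectopic regions SOX17 was higher after Dox, as GATA6 was. OCT4 was higher too, but the class rests on PTF peaks that appear after Dox, so that is no separate result. OCT4 medians in the 561 regions were 0.810 RPM before Dox, 1.57 on day 1, 1.72 on day 2 and 1.45 on day 4, and SOX17 reached 2.13 RPM on day 2. Near Ttf2, 20.7 kb from the start, OCT4 was at 1.40 RPM before Dox, 1.04 at 8 h, 1.86 at 16 h, 7.27 on day 1, 13 on day 2, 7.36 on day 4 and 0.533 in XEN cells. In an intron of Esrrg, a gene for an orphan nuclear receptor, it was at 0.721, 0.321, 0.940, 4.32, 9.76, 25.1 and 0.533 RPM, with GATA6 at 0.398 RPM at 8 h and 9.88 on day 4. Both regions had OCT4 near background before Dox and in XEN cells and their highest values in between. They were chosen in this class for their OCT4 on day 2, so that order follows from the choice. The strongest OCT4 before Dox in a closed region, near Arhgdib, was 16.4 RPM, with 24.2 at 8 h and 3.21 on day 4.

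The question of the siRNA experiment is whether GATA6 binding depends on OCT4. In constitutive heterochromatin the GATA6 median on day 2 was 1.11 RPM with siCTL and 1.13 with siOCT4 (1.64 and 1.68 over all regions). GATA6 was past 2-fold higher with siOCT4 in 348 regions (8.06%, against 7.77% of all regions) and lower in 268 (6.21%, against 5.28%). These near equal counts covered regions of opposite sign. In regions bound by PTFs before Dox GATA6 medians were 1.59 RPM with siCTL and 0.974 with siOCT4, and 0.853% were past 2-fold higher and 16.9% lower. Over all regions of the table in that class the medians were 2.24 and 1.72 RPM and the shares 1.23% and 10.9%. With neither kind of PTF binding 10.9% were higher and 3.50% lower, against 11.4% and 3.04%. Ectopic regions had medians of 3.51 RPM with siCTL and 2.82 with siOCT4, and 1.60% were higher and 7.49% lower, against 2.22% and 6.64%.

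By accessibility, the GATA6 medians with siCTL and siOCT4 were 1.11 and 1.20 RPM in closed regions and 1.15 and 0.883 RPM in moderately accessible ones. In closed regions 9.69% were past 2-fold higher and 5.05% lower, against 10.8% and 4.92% of all closed regions. In moderately accessible regions 2.38% were higher and 10.5% lower, against 3.40% and 6.03%. Named regions showed both directions. GATA6 near Nlrp4a was at 3.03 RPM with siCTL and 0.697 with siOCT4, near Arhgdib at 4.89 and 1.14, near Tpm3-rs7 at 15.3 and 6.30 and in the Abca4 intron at 23.1 and 10.8. Near Thumpd3 the values were 39.3 and 40.4 RPM and in the Zfhx3 intron 23.5 and 27.5, while near Otud4 they were 4.20 and 11.3 RPM. SOX17 was past 2-fold higher with siOCT4 in 793 regions (18.4%, against 20.8% of all regions) and lower in 22 (0.509%, against 0.441%). Its median over all regions was itself 0.52 higher on the log2 scale, and relative to that 5.28% were higher and 5.35% lower, against 5.87% and 4.23%.

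Many constitutive heterochromatin regions shared sequence with one another. When windows of 201 bases around the summits of all regions were aligned with each other, 938 of the 4318 (21.7%) had a partner over at least 120 bases at 75% identity or more, against 10.3% of all regions, 9.76% of all closed regions, 5.50% of facultative heterochromatin and 16.3% of naive regions. The chains of such partners made 121 families with a constitutive heterochromatin region, and the 10 families with 20 or more of them held 582 (13.5%). No table of repeat names was used, so the families are called A to J by size. The families and the settings were chosen after values had been seen, and their courses are descriptions. Reads were kept only above a mapping quality of 30, which removes reads from near-identical copies, and the part of that filter in the levels of the families was not tested.

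The windows below show 4 families with different courses, each from the constitutive heterochromatin region with the most partners among those in introns or between genes that had the motif in the window, on the strand of the GATA6 motif in capitals, from RefSeq GRCm38.
Family A, chr8:71953075-71953275, + strand, in an intron of Zfp961: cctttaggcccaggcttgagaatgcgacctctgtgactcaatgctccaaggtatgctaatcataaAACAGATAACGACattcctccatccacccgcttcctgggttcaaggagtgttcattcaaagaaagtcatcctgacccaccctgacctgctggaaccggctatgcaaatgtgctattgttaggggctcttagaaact
Family D, chr2:44483481-44483681, + strand, near Gtdc1: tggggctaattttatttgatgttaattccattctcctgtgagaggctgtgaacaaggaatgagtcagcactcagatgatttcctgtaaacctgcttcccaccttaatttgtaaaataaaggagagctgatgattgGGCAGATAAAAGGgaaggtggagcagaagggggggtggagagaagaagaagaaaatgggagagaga
Family E, chr2:59635426-59635626, − strand, in an intron of Tanc1: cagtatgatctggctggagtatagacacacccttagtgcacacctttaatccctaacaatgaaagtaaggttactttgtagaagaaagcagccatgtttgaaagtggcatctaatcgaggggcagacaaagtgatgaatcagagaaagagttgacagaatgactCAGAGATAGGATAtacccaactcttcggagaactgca
Family I, chr4:3402967-3403167, + strand, near Tmem68: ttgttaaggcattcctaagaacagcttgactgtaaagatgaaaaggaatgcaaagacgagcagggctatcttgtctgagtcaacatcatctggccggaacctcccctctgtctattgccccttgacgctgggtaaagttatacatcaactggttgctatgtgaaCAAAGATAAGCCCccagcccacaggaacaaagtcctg

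Family A was the one most made up of constitutive heterochromatin, which was 129 of its 214 regions (60.3%) and lay on 20 chromosomes. Its GATA6 medians were 0.327 RPM before Dox, 1.67 at 8 h, 1.63 at 16 h, 1.35 on day 1, 1.38 on day 2, 1.29 on day 4 and 0.504 in XEN cells. SOX17 was at 0.597 RPM before Dox, 2.05 on day 2 and 1.44 on day 4, and OCT4 at 1.02, 1.91 and 1.32 RPM. GATA6, SOX17 and OCT4 were thus all at their highest in the family between 8 h and day 2. Of these regions 73.6% were SOX17-bound and 49.6% ectopically bound by PTFs, against 44.5% and 16.6% of all regions. A high or mid GATA6 motif score was found in 27.1% of the 129. The commonest best motif, in 18 of the 106 with a motif, held no GATA, unlike the window shown for family A. That window came from a moderately accessible region with GATA6 at 7.15 RPM at 8 h, while 76% of the 129 were closed. Family D, with 298 regions in the table, had GATA6 medians of 0.327, 2.08, 1.5, 1.02, 0.799, 0.406 and 0.202 RPM in the same order. Of its 83 constitutive heterochromatin regions 97.6% were past 2-fold lower on day 4 than at 8 h, against 34.8% of all regions. Of its 80 regions with a motif, 29 had the letters GGCAGATAAAAGG as the best one. PTFs were bound before Dox at 72.3% of the 83, against 20.8% of all regions.

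Families E and I ran the other way. The 39 constitutive heterochromatin regions of family E had GATA6 medians of 0.327 RPM before Dox, 0.514 at 8 h, 0.639 at 16 h, 0.714 on day 1, 0.746 on day 2, 1.32 on day 4 and 1.70 in XEN cells. Of these 66.7% were past 2-fold higher on day 4 than at 8 h, against 30.9% of all regions. The 22 of family I had 0.408, 0.575, 0.899, 1.03, 1.04, 1.15 and 1.64 RPM, and 11 of them had CAAAGATAAGCCC as best motif. Both families were closed for the most part (35 of 39 and 20 of 22). Families G and H held a high or mid OCT:SOX motif in 74.3% and 86.7% of their constitutive heterochromatin regions, and their OCT4 medians before Dox were 2.29 and 1.5 RPM, with GATA6 at 2.86 and 1.63 RPM at 8 h and 0.589 and 0.401 on day 4. Copies that share a sequence are not independent of each other, and each family's median counts as a single pattern.

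**Figure D5:**
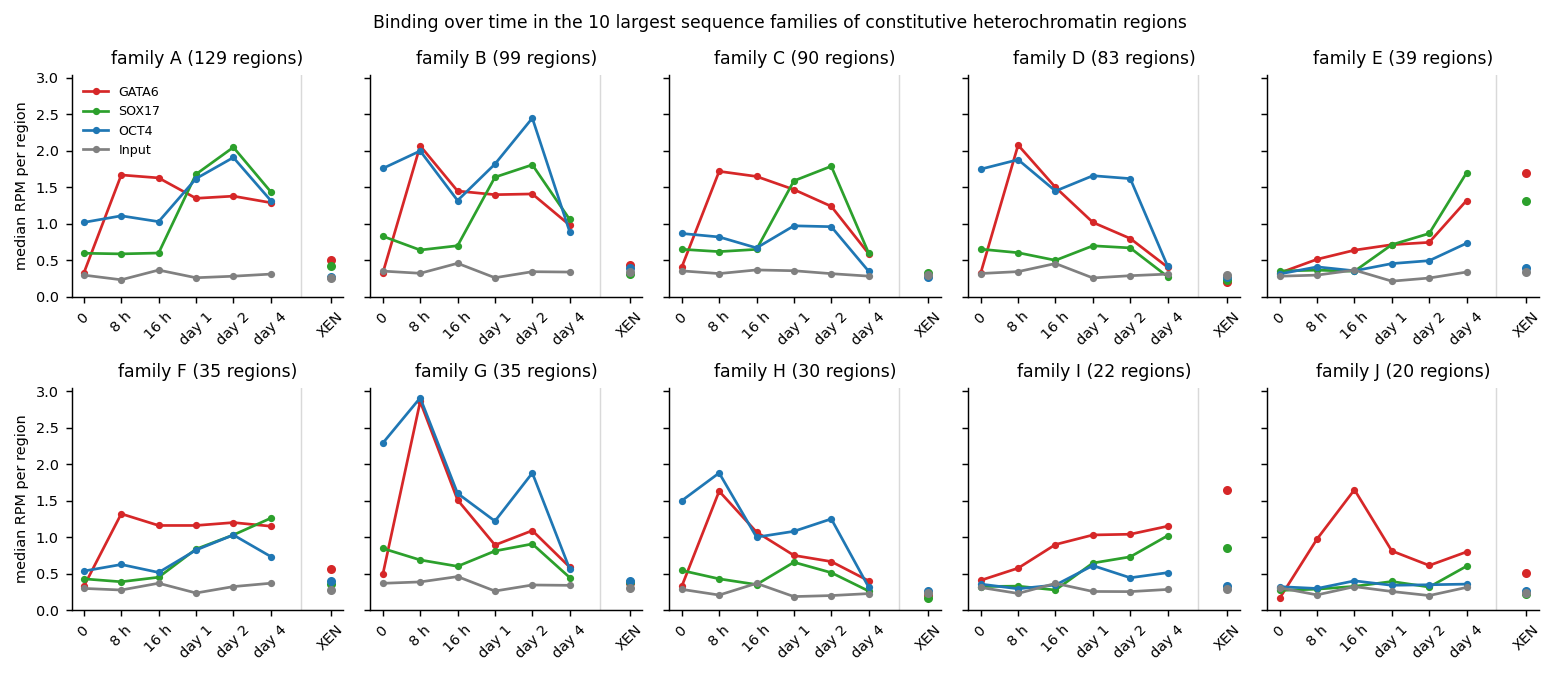
Median RPM per region of GATA6, SOX17, OCT4 and input over time in the constitutive heterochromatin regions of families A to J, with the number of regions in brackets. GATA6 was highest at 8 h in family D (2.08 RPM, then 0.406 on day 4) and highest in XEN cells in families E (1.70 RPM) and I (1.64 RPM).

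Compared within closed regions, the 594 in a family had GATA6 medians of 1.29 RPM at 8 h, 0.961 on day 4 and 0.600 in XEN cells, while the 2771 in none had 0.586, 0.890 and 1.07 RPM. Past 2-fold gains at 8 h were seen in 66.3% of the former and 37.8% of the latter, against 64% and 47% of all closed regions. The closed regions outside families thus had their highest median in XEN cells, and those in families at 8 h. Over all closed regions the medians were 1.35 RPM at 8 h, 1.10 on day 4 and 0.880 in XEN cells in a family, and 0.876, 1.30 and 1.57 RPM in none, the same order.

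Gene lists were counted over the nearest gene of a region, where the region lay in that gene or within 50 kb of its start. Zinc finger genes, clusters of which are known to carry this chromatin, had 76 of the constitutive heterochromatin regions (1.76%, against 1.54% of all regions) near 61 genes. Clustered olfactory and vomeronasal receptor genes had 64 (1.48%, against 0.627%) near 57 genes. Imprinted genes, expressed from the allele of 1 parent, had 16 (0.371%, against 0.219%), germline genes 3 and protocadherins 2. PrE genes had 14 (0.324%, against 0.601%) and pluripotency genes 11 (0.255%, against 0.406%). The receptor genes were thus the list with the largest share relative to the table, and the PrE and pluripotency lists had smaller shares than in it.

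For 5 of these lists the region with the most GATA6 on day 4 is given, leaving out the germline genes and protocadherins, where it was below 1 RPM (0.936 and 0.851). In an intron of Zfp366, chr13:99217552-99218395, GATA6 was at 0.653 RPM before Dox, 2.46 at 8 h, 2.62 at 16 h, 3.38 on day 1, 3.89 on day 2, 9.08 on day 4 and 17.1 in XEN cells. Near the receptor pseudogene Olfr718-ps1, chr5:143132851-143133892, the values were 1.31, 2.66, 7.16, 6.84, 7.20, 11.4 and 4.44 RPM. At a promoter inside Igf2r, an imprinted gene for a receptor that clears IGF2, chr17:12740195-12740832, they were 0.327, 3.37, 3.31, 3.06, 3.30, 8.36 and 14.7 RPM. They were chosen for their value on day 4, so its place above that at 8 h is no result. An intron of Gata6 itself had a closed constitutive heterochromatin region with GATA6 at 0.327 RPM before Dox, 3.55 at 8 h, 5.98 on day 4 and 9.48 in XEN cells, and 17.7 kb from Dppa4, a pluripotency gene, a region at chr16:48265270-48266977 went the other way, with 1.14 RPM before Dox, 10.7 at 8 h, 1.85 on day 4 and 1.46 in XEN cells. The next in the PrE list, an exon of Nid2, a basement membrane gene of PrE, had 0.391 RPM at 8 h, 3.29 on day 4 and 6.34 in XEN cells.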

How the data were processed

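ChIP-seq reads were trimmed with cutadapt, aligned to mm10 with bowtie2 in local mode, kept above a mapping quality of 30 and freed of duplicates by UMI with SAMtools by the authors (tool versions were not given in the sources used here). They called peaks with MACS2 on merged replicates, kept those found in every replicate, and counted reads with bamsignals. The deposited values are RPM, scaled to library size by the authors. The deposited motif scores come from the authors' FIMO search with JASPAR matrices, and chromatin, accessibility, binding and PTF classes were taken as deposited. The 96 labelled libraries make 47 conditions. The table has 105 columns, and 14 columns of values per sample (ATAC-seq, ENCODE) were not used, nor was the column with the outcome of the authors' own test of siOCT4. Region starts are printed as deposited, and whether they count from 0 or 1 is not given.

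Differences are on log2(RPM + pseudocount), the pseudocount being the 5th percentile of each assay (GATA6 0.193, SOX17 0.192, OCT4 0.167, SOX2 0.195, ESRRB 0.164, input 0.158 RPM), which understates the change of low regions. Past 2-fold means at least 1 in size on that scale. Depth was inferred from the steps of low values, with most columns taken as means over libraries scaled separately. Genes came from GENCODE M21 and sequence and repeat masking from RefSeq GRCm38. Summit windows were aligned with blastn 2.17.0 and joined by single linkage. Python 3.11.15, numpy 2.4.6, pandas 2.3.3, scipy 1.17.1, pysam 0.24.0 and matplotlib 3.10.9 were used, and the scripts were tested on simulated data. Named regions were those with the highest net signal (RPM minus input) of GATA6 at 8 h and day 4 by accessibility class, of SOX17 at day 4 and of OCT4, the largest differences from 8 h to day 4 among regions with a highest GATA6 value at or above the 75th percentile, and the highest motif scores, leaving out chromosomes 18 and Y. Chromosome 18 was not left out for the regions of the gene lists, among them that in Gata6 at chr18:11077867-11078715. Members, lists and families were chosen with earlier results of these data known.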

Additional observations from a re-analysis of the deposited data

How the results depend on the processing

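All shares below are percent of the constitutive heterochromatin regions past 2-fold, higher and then lower. Of 131 alternative values for 24 results, 72 stayed within the range set for no change, 58 moved and 1 reversed. With a pseudocount 10 times larger the shares were 13.9 for GATA6 at 8 h, 6.51 and 7.97 from 8 h to day 4, 2.06 and 1.2 from day 4 to XEN cells, 13.2 and 0.0926 for SOX17, 1.6 and 0.324 for OCT4, 0.185 and 0.162 for SOX2, 0 and 3.54 for ESRRB, 0 and 0 for input, and with siOCT4 0.486 and 0.208 for GATA6 and 2.18 and 0 for SOX17. With one 10 times smaller they were 21.8 lower from day 4 to XEN cells, 11.1 lower for SOX17, 17 and 6.99 for OCT4, 8.96 and 8.34 for SOX2, 1.48 and 29.6 for ESRRB, 3.36 and 5.09 for input, and with siOCT4 12.3 and 10.9 for GATA6 and 28.3 and 1.69 for SOX17. Both follow from the construction of the scale, since most regions lie near the pseudocount. Relative to the median change of all regions they were 13.6 for GATA6 at 8 h, 22.3 and 22.4 for SOX17, 7.2 and 6.83 for OCT4, 2.66 and 11.7 for ESRRB, and 5.28 and 5.35 for SOX17 with siOCT4. With input subtracted they were 23.5 lower from day 4 to XEN cells, 9.4 lower for SOX17, 27.4 and 6.72 for OCT4, 14.2 and 8.29 for SOX2, and 2.62 and 29.6 for ESRRB. The ratio of moderately accessible to closed regions at 8 h was 2.2 by means, 2.28 per kb, 3.83 with input subtracted and 3.18 in regions with under 50% of bases masked, and that of accessible to closed regions was 1.71 by means. The ratio of high score to no motif in closed regions at 8 h was 6.83 with input subtracted and 2.14 for high or mid against low or none, and at day 4 it was 1.53 by means and 0.876 per kb, below 1. Except where a construction is named, the cause was not tested.

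No paired analysis was possible because the table holds 1 pooled value per condition and no result comes from a test. For the same reason leaving out a replicate was not possible. A setting of 85% identity for the families, chosen after seeing the data, left 667 regions (15.4%) in a family, against 6.4% of all regions. GATA6 before Dox and OCT4 in XEN cells rest on 1 library each, of 6.12 and 7.5 M reads.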

Other observations

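The highest ESRRB value of the whole table before Dox, 32.6 RPM, was in a closed constitutive heterochromatin region in an intron of Capn2, a gene for a calpain protease, at chr1:182500866-182501246. This region was named after its values were seen. ESRRB there was at 29.7 RPM at 8 h, 41.6 at 16 h, 24.9 on day 1, 14 on day 2 and 0.919 on day 4, beside input at 0.444 RPM before Dox and 0.254 on day 4. OCT4 stayed between 0.492 and 1.29 RPM and SOX2 between 0.301 and 1.26 RPM in all conditions, and GATA6 was at 0.163 RPM before Dox and 1.25 at 8 h. The region had neither a GATA6 nor an OCT:SOX motif, and its deposited PTF class was that of no PTF binding.

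Within 10 kb of another constitutive heterochromatin region lay 523 of the 4318 (12.1%). Measured within their own class, the shares were 21.8% of 9475 facultative heterochromatin regions and 19.8% of 7631 naive regions. Such a share depends on the number of regions in a class, so no difference in spacing is read from it. Constitutive heterochromatin regions were few among the strongest sites, while they made up 10.2% of the table. They were 8 of the 425 regions in the top 1% for GATA6 at 8 h (1.88%), 11 on day 4 and 15 for SOX17 on day 4 (3.53%).

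In moderately accessible constitutive heterochromatin the motif score also ordered GATA6 at 8 h, with medians of 3.08, 2.21, 1.87 and 1.17 RPM from high score to no motif (152, 240, 380 and 154 regions). On day 4 the medians were 0.885, 0.759, 0.725 and 0.540 RPM in the same order. Regions with better motifs were wider here too, with medians of 600, 502, 466 and 334 bp. Per kb the medians were 4.99, 4.35, 4.08 and 3.56 RPM at 8 h. On day 4 they were 1.43, 1.65, 1.52 and 1.42 RPM per kb, no longer in the order of the motif.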
